A study of Mus musculus with 12 samples.

Results

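Among islet cells sorted as YFP-, 298 carried the transcripts of myeloid cells, 77 in experiment 1 and 221 in experiment 2, out of 3184 YFP- cells and of 5982 cells in all 4 single-cell libraries. They were chosen by transcript counts. A cell was included when at least 4 of the 6 genes Lyz2, Tyrobp, Fcer1g, Cd68, C1qa and Laptm5 had at least 1 unique molecular identifier (UMI, a captured mRNA molecule), and when none of the 4 main islet hormone transcripts passed its limit. Each limit was a density minimum, between low and high values of that hormone, of the natural log of 1 plus UMIs per 10000. Because these counts chose the cells, levels in the myeloid cells beside those in other cells are descriptions and carry no test.

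The study traced pancreatic polypeptide (Ppy) cells. All single-cell libraries came from Ppy-rtTA; TetO-Cre; R26-YFP (Ppy-YFPi) mice that were heterozygous for the Ppy-rtTA allele, in which rtTA replaces the Ppy coding sequence, aged 2 months and given doxycycline (DOX) at 1 mg/ml in the drinking water during the preceding month. DOX switches on Cre in cells that transcribe the Ppy locus, which leaves a lasting YFP label in them, so that the YFP- fraction holds the unlabelled cells of the dissociated islets. Each of 2 experiments pooled the islets of several mice and gave a YFP+ and a YFP- library on the 10x Chromium system. The bulk libraries used further on came from YFP+ cells of such DOX-treated mice (γ-cells, 5 libraries) and from YFP+ cells of SstCre; R26YFP mice of 2 months (δ-cells, 3 libraries), in which Cre is driven by the somatostatin gene.

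Macrophages are phagocytes of tissues that digest what they engulf in lysosomes, present peptides on major histocompatibility complex (MHC) class II and release chemokines and complement. In the pancreas, one population lies inside the islets beside the capillaries and is known for antigen presentation, and others lie in the stroma around ducts and acini and carry scavenger and mannose receptors. Dendritic cells, which present antigen to T cells, and granulocytes with their precursors, which in adult mice are made in bone marrow, belong to the same lineage and share the adaptor proteins Tyrobp and Fcer1g, which pass on signals of activating receptors.

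The myeloid cells made up 5.15% of the 1495 YFP- cells of experiment 1 (95% exact binomial interval 4.09 to 6.40%) and 13.1% of the 1689 YFP- cells of experiment 2 (11.5 to 14.8%). In the YFP+ libraries none of 1300 and none of 1498 cells met the rule, which allows shares of up to 0.231% and 0.200% when 3 cells are taken as the limit of a count of 0. The mean over the YFP- libraries was 9.12 ± 5.61% (SD, n = 2). The rule defines these shares, so they are given without a test, and with 2 libraries against 2 a two-sided exact permutation test cannot go below p = 0.333. The rule bars cells rich in Ppy, which the YFP+ sort collects, so the share was also taken without the hormone limits. Then 78 and 248 YFP- cells (9.95 ± 6.69%, SD, n = 2) and 4 and 6 YFP+ cells (0.354 ± 0.0656%) had at least 4 of the 6 genes. All 10 of these YFP+ cells were above the Ppy limit. Intervals here and below cover counting error only.

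Of the myeloid cells, 33 had 4, 32 had 5 and 12 had all 6 of the genes in experiment 1, and 104, 68 and 49 did in experiment 2. Just outside the rule stood 13 and 63 cells with 3 of the 6 genes and no hormone above its limit. Summed over the 6 genes, cells with 4 genes had 4890 and 6201 CPM (counts per 1000000 of the summed UMIs of these cells) in experiments 1 and 2, and the cells with 3 genes had 2374 and 4142 CPM. In experiment 2, 27 further cells had at least 4 of the genes but passed a hormone limit, 17 of them that of Gcg and 11 that of Sst. No doublet caller was used for this choice. Median depth was 3847 UMIs and 1309 genes per myeloid cell in experiment 1 and 3148 UMIs and 1197 genes in experiment 2, below the 8772 and 4381 UMIs of the other YFP- cells. No cell barcode was shared between the myeloid cells of the 2 libraries.

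The 6 genes of the rule were high by choice and do not check the name of the cells. Among genes outside the rule, the myeloid factor Spi1 (PU.1) had a UMI in 45 of 77 and 116 of 221 cells and Csf1r, the receptor of the macrophage growth factor, in 38 and 137, beside 1.30 and 3.33% of B-lineage cells. Lyz2, which encodes lysozyme, stood at 6287 CPM in experiment 1 (75 of 77 cells) and 6944 CPM in experiment 2 (217 of 221 cells). In cells of the B lineage from the same libraries, chosen by 3 or more of their own markers, Lyz2 was at 25.6 and 46.6 CPM, with a UMI in 2.60 and 21.7% of the cells. Tyrobp was at 1414 and 1307 CPM, and Fcer1g at 1166 and 1060 CPM. The lysosomal membrane proteins Cd68 (178 and 120 CPM) and Laptm5 (605 and 483 CPM) were lower. C1qa, a chain of the complement protein C1q that macrophages make, had a UMI in 36 of 77 and 124 of 221 cells, and Retnla, a secreted protein known from alternatively activated macrophages, in 29 and 130 cells at 5076 and 5151 CPM. A Retnla UMI was found in 9.09 and 13.3% of B-lineage cells, whose median depth was 10768 and 6210.5 UMIs.

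**Figure D1:**
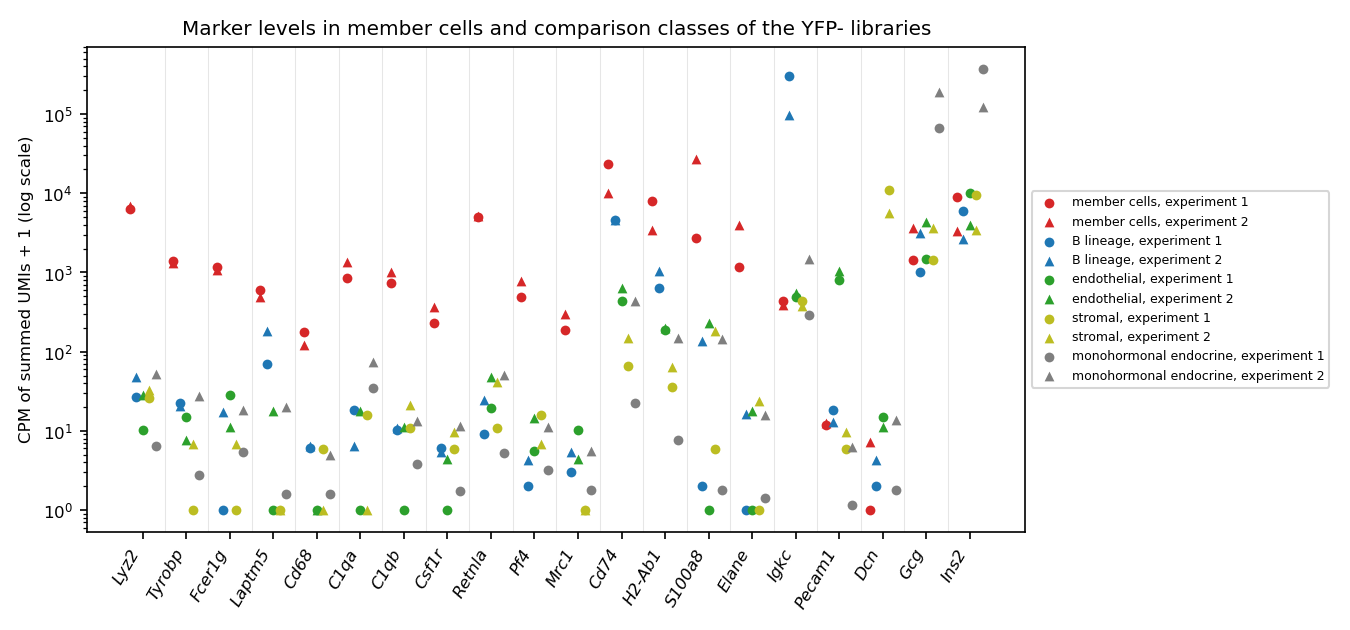
Levels of 20 genes in the myeloid cells (red) and in 4 comparison classes of the YFP- libraries, as CPM of the summed UMIs plus 1 on a log axis, with circles for experiment 1 and triangles for experiment 2; each point is 1 library. Lyz2 lay at 6287 and 6944 CPM in the myeloid cells and at most at 46.6 CPM in B-lineage cells, whereas the hormone transcripts Gcg and Ins2 lay among the levels of the other non-endocrine classes.

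Markers of other cell types were measured in the same cells. The 10 endocrine transcripts of a background list, of which Ins2 was the most abundant, summed to 14375 and 10004 CPM in the myeloid cells, to 9668 and 8292 CPM in the B lineage and to 16095 and 12048 CPM in endothelial cells. Immunoglobulin kappa (Igkc) was at 434 and 393 CPM in the myeloid cells and at 490 and 543 CPM in endothelial cells, against 303876 and 97965 CPM in the B lineage. Pecam1, Cdh5 and the other endothelial markers summed to 16.2 and 35.1 CPM, and stromal collagens and their companions to 8.10 and 28.1 CPM. Cd3d, Cd3e, Cd3g and Trbc2 of T cells were at 0 in experiment 1 and at 21.0, 10.5, 16.7 and 41.2 CPM in experiment 2. With 4 further genes of T and NK cells they summed to 199.7 and 534 CPM, of which Nkg7 gave 121 and 420.0 CPM. Of 6 mast cell and basophil genes only Cpa3 was detected, with 1 cell. Altogether 170 of the 298 cells had a UMI of at least 2 genes of another class (B-lineage genes in 31 and 95 cells, acinar genes in 24 and 31), while 2 and 12 cells met the full marker rule of the B-lineage, endothelial or stromal class. On lists of 7 B-lineage and 8 acinar genes, a wider count than that rule, at least 3 genes were found in 6 and 28 cells and in 6 and 20 cells. The part of mixed droplets in these levels was not tested.

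Of 2019 genes with at least 20 UMIs in the myeloid cells of each library, 328 (16.2%) were at least 4-fold higher than in all other YFP- cells in both experiments, with 1 CPM added to each level. The rule shares this contrast, so nothing is read from the count. The median gene stood 2.70-fold and 1.61-fold higher. The 20 genes with the highest mean fold fell into several programmes. In experiment 1 a single cell held all UMIs of Elane, Ctsg, Mpo, Ms4a3 and S100a9, 237 of 238 UMIs of Prtn3 and 1001 of 1002 of S100a8, so the place of these 7 genes rests on that cell there. Elane, Ctsg, Prtn3 and Mpo encode enzymes of primary granules, in which granulocyte precursors store them, and Ms4a3 is a marker of such precursors. S100a8 and S100a9 form calprotectin, an abundant protein of neutrophils. C1qb and C1qc complete the C1q molecule. Pf4, Ccl6 and Ccl9 are chemokines, Mrc1 is the mannose receptor, F13a1 is a transglutaminase of clotting, and Fcrls is an Fc receptor-like molecule of macrophages. Lyz2, Tyrobp, Fcer1g, Retnla and Wfdc17 made up the rest. Wfdc17 was at 1252 and 1879 CPM in 49 and 164 of the myeloid cells and at 2.51 and 22.9 CPM in other YFP- cells.

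Spi1, which binds many myeloid enhancers and promoters, was at 199.7 and 246 CPM. A common form of its site, GAGGAAGT (ACTTCCTC on the other strand), was therefore searched on both strands of RefSeq promoters of build GRCm38.p6, from 250 bases before to 50 bases after the start of transcription. It was found in 1052 of 32851 promoters (3.20%). Of the 20 leading genes, which the choice of cells brought forward, 19 had 1 or more promoters in this table, and 8 of their 20 promoters held the site, namely those of Elane, Prtn3, Retnla, C1qc, S100a8, Mpo, Pf4 and F13a1 (in 1 of its 2 promoters, after the start). Such a match describes the sequence and is not a measured binding site. The promoters of 4 of the genes with the site are shown here in the direction of transcription, with the site in capitals. They are Elane (chr10:79886062-79886361, plus strand, site 85 bases before the start), Retnla (chr16:48842359-48842658, plus strand, 198 bases before), C1qc (chr4:136892865-136893164, minus strand, 195 bases before) and S100a8 (chr3:90668821-90669120, plus strand, 172 bases before).
Elane: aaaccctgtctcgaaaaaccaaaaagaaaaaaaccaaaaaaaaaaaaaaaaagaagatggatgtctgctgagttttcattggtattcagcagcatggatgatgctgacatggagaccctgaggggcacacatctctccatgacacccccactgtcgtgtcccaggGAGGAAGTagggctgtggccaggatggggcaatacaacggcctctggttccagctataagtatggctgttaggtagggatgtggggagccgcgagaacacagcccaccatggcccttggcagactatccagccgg
Retnla: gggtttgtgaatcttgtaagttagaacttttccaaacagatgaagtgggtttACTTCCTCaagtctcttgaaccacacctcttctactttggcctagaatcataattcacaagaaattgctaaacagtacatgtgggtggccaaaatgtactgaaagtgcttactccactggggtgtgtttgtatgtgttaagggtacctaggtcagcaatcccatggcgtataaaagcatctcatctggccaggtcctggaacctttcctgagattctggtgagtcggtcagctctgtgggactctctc
C1qc: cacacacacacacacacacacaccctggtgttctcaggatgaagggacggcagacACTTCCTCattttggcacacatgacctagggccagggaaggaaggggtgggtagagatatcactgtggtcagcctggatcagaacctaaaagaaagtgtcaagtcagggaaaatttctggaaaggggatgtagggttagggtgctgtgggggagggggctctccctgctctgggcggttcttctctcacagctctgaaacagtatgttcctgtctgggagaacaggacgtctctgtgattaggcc
S100a8: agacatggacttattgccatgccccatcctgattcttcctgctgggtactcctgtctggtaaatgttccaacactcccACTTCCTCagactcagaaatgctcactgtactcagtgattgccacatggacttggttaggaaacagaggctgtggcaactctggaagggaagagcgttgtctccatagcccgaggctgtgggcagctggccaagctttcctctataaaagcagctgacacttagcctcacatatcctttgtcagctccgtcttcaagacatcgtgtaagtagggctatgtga
Elane carried the site on its own strand, and Retnla, C1qc and S100a8 on the other one. Prtn3, whose promoter window begins at base 79879417 of the same chromosome 10 and so lies next to Elane, held it 95 bases before its start.

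The cells were not uniform, and counts of genes per cell from marker lists described their sets. A list was scored when at least 3 of its genes had a UMI in a cell. Genes of stromal-type macrophages (a list of 12, among them Retnla, Mrc1, Folr2, Lyve1, F13a1 and Pf4) were scored in 37 of 77 and 138 of 221 cells, against 1 of 77 and 1 of 120 B-lineage cells. Genes of islet-type macrophages (8, among them Itgax, Cx3cr1, Adgre1, Apoe and Il1b) were scored in 21 and 36 cells, and dendritic cell genes (10, among them Xcr1, Clec9a, Batf3 and Flt3) in 22 and 20 cells. In the B lineage these 2 lists were scored in 0 and 0, and in 0 and 1 cells. The 5 primary granule genes Elane, Mpo, Prtn3, Ctsg and Ms4a3, a list chosen after their values were seen, were scored in 1 and 27 cells and in no B-lineage cell, although 10.8% of the B-lineage cells of experiment 2 had an Elane UMI. Neutrophil genes were scored in 1 and 48 cells, but also in 24 of 120 B-lineage cells of experiment 2, so nothing is read from this score there. Cells in which S100a8 and S100a9 together exceeded 2% of all UMIs, a limit also chosen after the values were seen, numbered 1 and 22, and no cell of the comparison classes exceeded 0.265%. Sets overlapped, since 33 of the 175 cells of the stromal-type list were also scored for the islet-type list. In 8 and 23 cells none of 6 lists (both macrophage lists, dendritic, monocyte, neutrophil and primary granule genes) was scored. Of these, 1 and 8 cells were scored for proliferation genes.

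**Figure D2:**
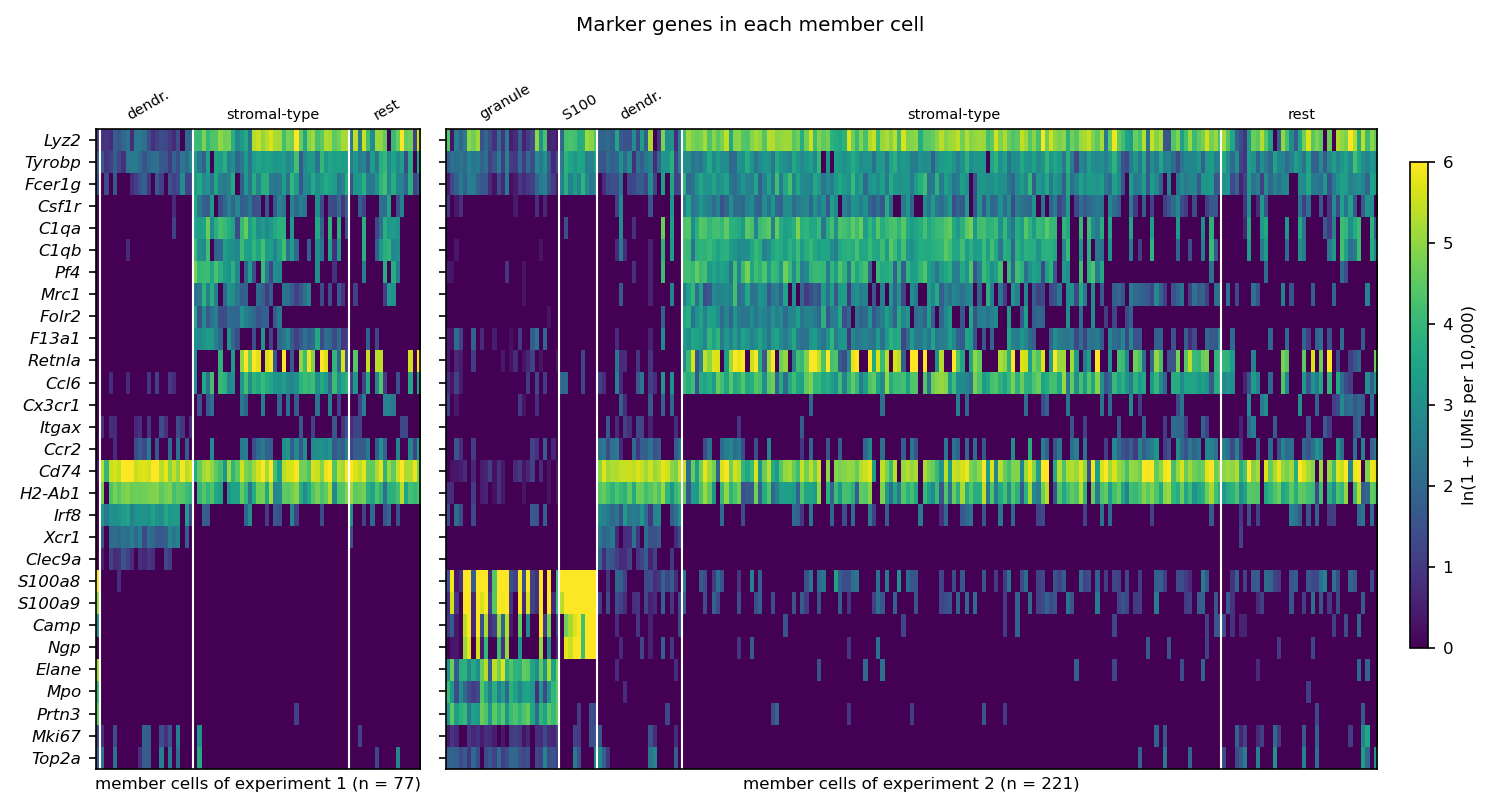
Level of 29 marker genes in each of the 77 and 221 myeloid cells of experiments 1 and 2, as the natural log of 1 plus UMIs per 10000, with cells in columns and placed in the first block that they qualify for: primary granule genes (1 and 27 cells), S100a8 and S100a9 over 2% of UMIs (9 in experiment 2), dendritic list (22 and 20), stromal-type list (37 and 128) and the rest (17 and 37). C1qa, Mrc1 and Folr2 were seen mainly in the stromal-type block, Xcr1 and Irf8 in the dendritic block, and Elane and Mpo in the granule block, which has a single cell in experiment 1.

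The stromal-type list, which chose the next 175 cells, holds Retnla, Mrc1, F13a1, Folr2, Lyve1 and Cd163, and the rule for all myeloid cells holds Lyz2 and C1qa, so that the choice favoured these genes and only Csf1r and Apoe of those given here lie outside both. In the 175 cells, Lyz2 was at 14537 CPM in experiment 1 and 10069 CPM in experiment 2, and Retnla at 14381 and 9668 CPM. C1qa had a UMI in 132 of the 175 cells, and Csf1r, the receptor for the growth factor on which macrophages depend, in 143. The mannose receptor Mrc1 was detected in 134, F13a1 in 147 and Apoe, a lipid carrier, in 145 cells. Over all 298 cells, Folr2 (a folate receptor) was at 97.1 and 254 CPM, Lyve1 (a hyaluronan receptor) at 135 and 255 CPM, and Cd163, the scavenger receptor for haemoglobin, at 35.1 and 103 CPM. Across cells thinned to 1000 UMIs, the summed stromal-type list had Spearman correlations of 0.61 (77 cells) and 0.68 (221 cells) with the complement list, 0.43 and 0.57 with the islet-type list and -0.34 and -0.37 with proliferation genes. The sign differed between experiments with MHC class II (-0.39 and 0.16) and with neutrophil genes (0.23 and -0.13). Cells share a library, and these values describe it only.

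Within the stromal-type cells, the monocyte chemokine receptor Ccr2 was set beside markers of resident macrophages, as a description of cells that share a library. C1qa is a gene of the rule, so a cell without it entered by 4 of the other 5 genes, and Folr2, Pf4 and Retnla are genes of the list that chose these cells. The choice thus shaped each split, and nothing is read from them. A Ccr2 UMI was present in 15 of 28 cells with C1qa and in 8 of 9 without it in experiment 1, and in 36 of 104 and 26 of 34 such cells in experiment 2. The same order was seen with Folr2, where 7 of 20 cells with and 16 of 17 cells without a Folr2 UMI had Ccr2 in experiment 1, and 27 of 84 and 35 of 54 in experiment 2. Pf4, a chemokine of platelets and resident macrophages, gave 8 of 21 and 15 of 16, and 33 of 100 and 29 of 38 cells. The order was the opposite with Retnla, where Ccr2 was in 17 of 23 cells with and 6 of 14 without it in experiment 1 and in 49 of 104 and 13 of 34 in experiment 2. After thinning to 1000 UMIs per cell, Ccr2 was detected in 32.0% of the cells with and 58.3% of those without C1qa in experiment 1, and in 24.3 and 51.4% in experiment 2. Over all myeloid cells of experiment 1 a Ccr2 UMI was in 20 of 36 cells with and 24 of 41 without C1qa, and after thinning the order turned, with 38.7% against 28.3%. In experiment 2 it was in 43 of 124 and 59 of 97 cells, and after thinning in 22.9 and 33.0%. With Pf4 the thinned shares over all cells were 31.8 and 32.7% in experiment 1 and 20.7 and 32.1% in experiment 2. Within the stromal-type cells, Folr2 was detected in 20 of 28 and 80 of 104 cells with C1qa and in 0 of 9 and 4 of 34 without it.

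Genes of islet-type macrophages were sparser. The fractalkine receptor Cx3cr1 was detected in 17 and 38 of all myeloid cells (103 and 73.7 CPM) and the integrin Itgax (CD11c) in 21 and 30 (75.6 and 40.3 CPM). Adgre1, which encodes F4/80, was at 111 and 93.8 CPM. Apoe was the most abundant gene of the list at 3074 and 4829 CPM, but stromal cells also held 1651 and 737 CPM of it. The inflammatory cytokines Il1b and Tnf had UMIs in 3 and 3, and in 4 and 5 cells. In the 57 cells scored for this list, Cx3cr1, a gene that chose them, was at 323 and 338 CPM, and C1qa, a gene of the rule, was detected in 41 of them.

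The dendritic list, which chose the next set, holds Xcr1, Clec9a and Batf3 of conventional type 1 dendritic cells, so their presence there was fixed by the choice. In these 22 and 20 cells the chemokine receptor Xcr1 was at 640.1 and 351 CPM, and Irf8, a factor outside the list on which these cells depend, at 2078 and 1037 CPM. Clec9a, a receptor for dead cells, was detected in 27 of the 42 cells and Batf3 in 34. The invariant chain Cd74 was at 27778 and 21584 CPM, whereas Lyz2 stood at 416 and 2849 CPM and C1qa had a UMI in 5 of the 42 cells. With each cell thinned to 1000 UMIs only 0 and 1 cells reached 3 genes of this list, so that the number of cells depends on depth (medians of 8014.5 and 6841.5 UMIs). Outside the rule, 18 and 43 further YFP- cells had 3 genes of the list.

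The granule cells, chosen by 3 or more primary granule genes, overlapped with other lists, since 23 of 28 were also scored for the monocyte list and 6 for the stromal-type macrophage list. All 28 had Elane, Mpo, Prtn3 and Ms4a3, and 25 had Ctsg. A UMI of C1qa was found in 0 of the 28, which allows a share of cells with a UMI of up to 10.7%, one of Csf1r in 6, of Retnla in 12 and of H2-Ab1, an MHC class II chain, in 11. The proliferation genes Mki67 and Top2a had a UMI in 23 and 26 cells, and all 28 were also scored for the proliferation list. Their depth was high, with a median of 16417 UMIs in the 27 cells of experiment 2 and 24489 UMIs in the cell of experiment 1, which held all 435 Elane UMIs of its library's myeloid cells. Outside the rule, 0 and 10 YFP- cells had 3 of these genes.

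In the 22 cells of experiment 2 with S100a8 and S100a9 over 2%, these transcripts made up between 6.06 and 60.7% of a cell's UMIs, with a median of 30.1%. Over both experiments 14 of the 23 cells also had an Elane UMI, 22 had the antimicrobial peptide gene Camp, 20 had Ngp and 8 had Cxcr2, the chemokine receptor of mature neutrophils. None had a Csf1r or a Ccr2 UMI. A further 15 YFP- cells of experiment 2 passed 2% outside the rule, 14 of them with 3 of the 6 genes and none above a hormone limit, so the rule divides these cells. Together, the granule and S100 cells were 1 and 36 of the myeloid cells. The remaining 76 and 185 cells carried 93.4 and 56.8% of the myeloid UMIs, and in them S100a8 was at 2.89 and 225 CPM and Elane at 0 and 21.6 CPM.

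Antigen presentation genes were abundant. The 7 MHC class II genes summed to 49636 and 22015 CPM in the myeloid cells, against 6271 and 7996 CPM in the B lineage. In B-lineage cells the list of 7 B-lineage genes summed to 360749 and 123841 CPM, which lowers the CPM of all their other genes. At least 3 MHC class II genes had a UMI in 42 of 77 and 93 of 120 B-lineage cells. The size of the gap is therefore not read as a difference between antigen-presenting cells. In the myeloid cells, Cd74 was at 23388 and 10190.2 CPM, H2-Aa at 9345 and 4184 CPM and H2-Ab1 at 8055 and 3465 CPM, each higher in experiment 1. The mixture of cells differed between the experiments, and without the granule and S100 cells these levels were 25040 and 17897 CPM for Cd74, 10006 and 7344 CPM for H2-Aa and 8625 and 6073 CPM for H2-Ab1. Cells of the dendritic list remain in these levels. They held 48.1% of the myeloid UMIs in experiment 1 and 12.0% in experiment 2. Ciita, the activator that switches this group on, was at 184 and 95.6 CPM. Of 7 costimulatory genes Cd86 (72.9 and 32.4 CPM) alone had the 20 UMIs needed in each experiment, and it was past 4-fold in both. The 7 MHC class II genes were also past it, beside 16.2% of all genes.

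Among complement genes, C1qa, C1qb and C1qc were at 847, 726 and 629 CPM in experiment 1 and at 1353, 1007 and 998 CPM in experiment 2. Properdin (Cfp), which stabilises the alternative pathway, was at 316 and 328 CPM. The anaphylatoxin receptors C3ar1 and C5ar1 had UMIs in 13 and 52, and in 8 and 61 cells, and no UMI of C3ar1 was found in B-lineage, endothelial or stromal cells. C3 itself was mainly stromal, with 1879 and 1373 CPM there against 27.0 and 79.8 CPM in the myeloid cells. Of the 9 genes of the list 6 had enough UMIs and were past 4-fold, among them C1qa, which the rule chose, beside 16.2% of all genes.

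C1qa was also found in many endocrine cells, and C1qb in few of them. A C1qa UMI was found in 33.3 and 35.8% of monohormonal Gcg cells, in 32.7 and 19.4% of Ins2 cells and in 35.3 and 34.2% of Sst cells of the YFP- libraries, and in 24.0 and 18.9% of monohormonal Ppy cells of the YFP+ libraries. For C1qb these shares were 1.22 and 3.94%, 1.83 and 4.30%, and 0.270 and 0.440% in the Gcg, Ins2 and Ppy cells, and 1 of 136 and 5 of 155 Sst cells had one. In B-lineage cells, which should lack the gene, 2.60 and 3.33% had a C1qa UMI at median depths of 10768 and 6210.5 UMIs. The ratio of C1qa to C1qb UMIs was 1.17 and 1.34 in the myeloid cells, which C1qa helped to choose, 5.77 and 6.91 in Gcg cells (30 and 34 C1qb UMIs), 28.1 and 2.13 in Ins2 cells (8 and 15) and 65 and 8.78 in Sst cells (1 and 9). With so few C1qb UMIs the ratios of Ins2 and Sst cells are imprecise. The C1qa level remained far lower than in the myeloid cells, at 60.2 and 82.9 CPM in Gcg cells and 112 and 149 CPM in Sst cells. It was at 34.2 and 39.2 CPM in Ppy cells of the YFP+ libraries and at 21.8 and 24.4 CPM in Ins2 cells. B-lineage cells had 17.4 and 5.42 CPM, so Ins2 cells of experiment 1 stood near them by level. The share of cells with a UMI also depends on depth.

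Chemokines were led by Ccl6 (1136 and 1848 CPM), Pf4 (491 and 789 CPM) and Ccl9 (407 and 656 CPM), and 5 of 16 genes of this list, of which 6 had enough UMIs, were past 4-fold in both experiments, beside 16.2% of all genes. Ccl8 was found in 5 of 77 and 35 of 221 cells (37.8 and 333 CPM). Cytokines were low, with a sum of 154 and 102 CPM over 10 genes. Il1a and Il12b had no UMI, and the interleukin 1 antagonist Il1rn was found in 8 and 27 cells. Of a list of 5 survival ligands of macrophages, 2 were detected in the myeloid cells, led by Tgfb1. The list summed to 18.9 and 27.2 CPM there, against 185 and 115 CPM in endothelial and 174 and 168 CPM in stromal cells. Csf1, Il34 and Csf2 had no UMI in the myeloid cells, whereas Csf1 was at 111 and 47.2 CPM in endothelial and at 109 and 118 CPM in stromal cells, and Il34 at 59.5 and 49.1 CPM in stromal cells. Csf1r, the receptor of Csf1 and Il34, was at 232 and 367 CPM in the myeloid cells and at most at 8.67 CPM in stromal, endothelial or B-lineage cells.

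**Figure D3:**
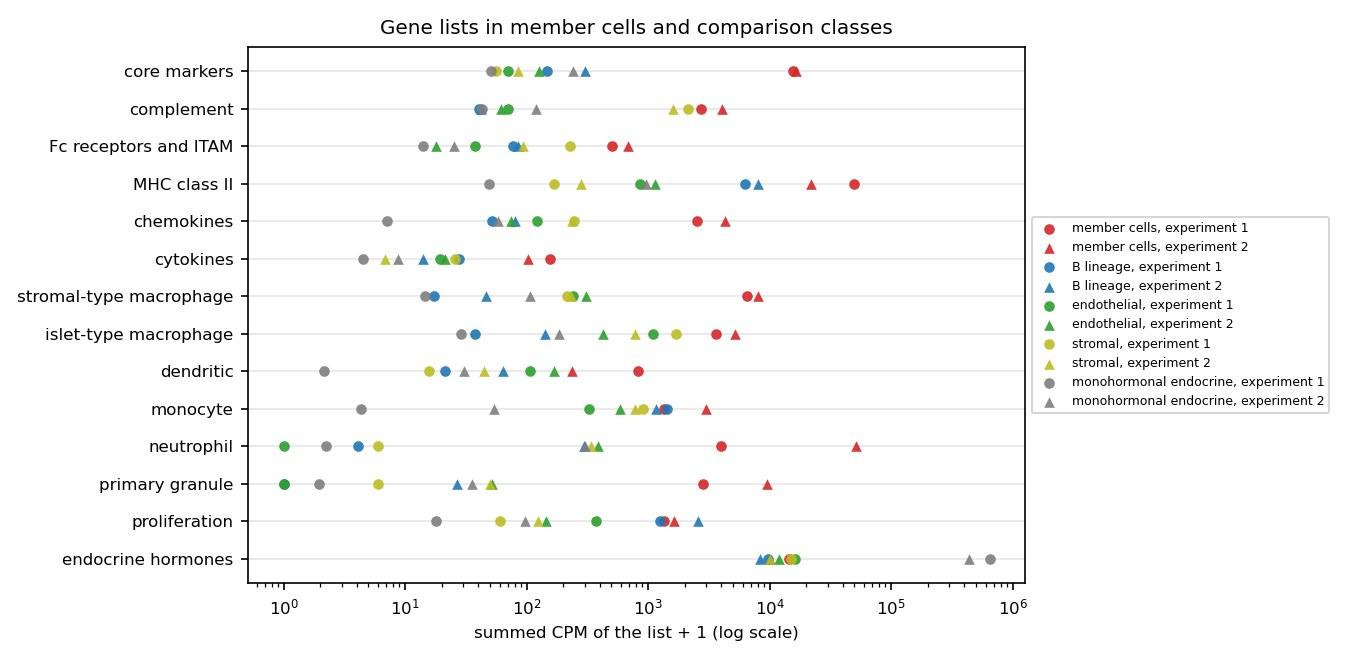
Summed level of 14 gene lists in the myeloid cells (red) and in 4 comparison classes, as CPM plus 1 on a log axis, with circles for experiment 1 and triangles for experiment 2; each point is 1 library. The myeloid cells stood highest in core markers, MHC class II, chemokine, neutrophil and primary granule lists, but below B-lineage cells of experiment 2 in the proliferation list (1642 against 2591 CPM) and among the other non-endocrine classes in the endocrine list.

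The myeloid cells of the experiments were set side by side without a test, since each is 1 library. Of 1282 genes with at least 100 CPM in either, 28 (2.18%) were at least 4-fold higher in experiment 2 and 14 (1.09%) in experiment 1, with 95% Poisson intervals apart. Secondary granule genes led the former. Ngp had no UMI in experiment 1 and 2571 CPM in experiment 2, at least 318-fold more than the 8.10 CPM that 3 UMIs would give. On the same floor Lcn2 (lipocalin 2) was at least 91.3-fold, Retnlg at least 40.5-fold and Ltf (lactoferrin) at least 33.8-fold higher. Camp was at 124 and 4051 CPM, a 32.6-fold difference in which all 46 UMIs of experiment 1 came from 1 cell. Experiment 1 was higher in Ckb (246 against 20.2 CPM), Serpinb6b (183 against 16.7), the chemokine Ccl22 (108 against 12.3), Xcr1 (316 against 44.7) and Fabp5 (259 against 40.3 CPM). Without the granule and S100 cells, a choice made after the values were seen, 34 genes were past 4-fold in place of 42, 28 of them higher in experiment 2 and 6 in experiment 1, but only 12 and 5 of these were among the 28 and 14 of all cells. In the remaining cells of experiment 2 Ngp was at 21.6, Lcn2 at 15.4 and Camp at 29.3 CPM. Without cells that had 2 genes of another class the number was 60, of which 48 were higher in experiment 2 (15 shared with the 28).

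**Figure D4:**
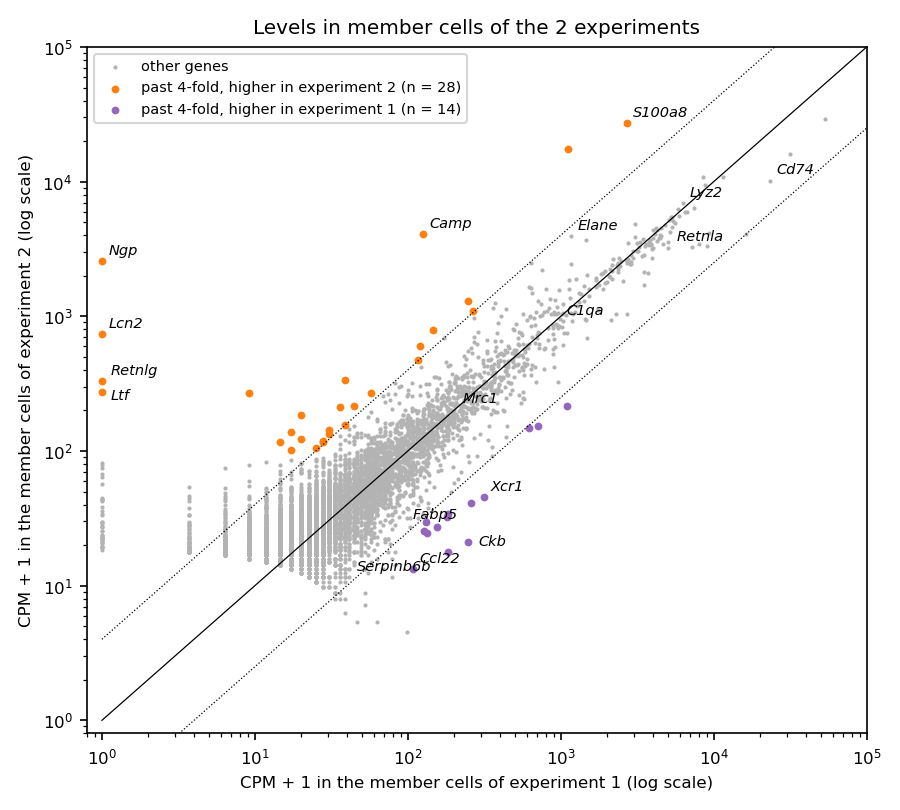
Level of each gene in the 77 myeloid cells of experiment 1 (x axis) and the 221 of experiment 2 (y axis), as CPM plus 1 on log axes, with a solid line of equal levels and dotted lines at 4-fold. The 28 genes higher in experiment 2 (orange) include S100a8 and Ngp, the 14 higher in experiment 1 (purple) include Xcr1 and Ckb, and Lyz2 and Retnla lie near the line of equal levels.

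To see whether myeloid transcripts differed between sorted endocrine populations, 5 lists (core markers, complement, Fc and activating receptors, MHC class II and growth factor receptors, 40 genes) were followed in bulk RNA-seq, which the rule did not use. Libraries held 14633838 to 31784878 counts for γ-cells and 7641916 to 11773598 for δ-cells. The edgeR quasi-likelihood test called 20.7% of 17926 genes higher in γ-cells and 14.2% higher in δ-cells. A call needed a log2 fold change of 1 or more in either direction and a Benjamini-Hochberg adjusted p, taken over all genes, of 0.05 or less, and genes averaging under 5 counts were left out. Of the 36 myeloid genes tested, 2 were higher in γ-cells, 1 in δ-cells and 33 were not called. Without γ-cell replicate 5, 8 of the genes were called and 6 of them were higher in δ-cells, among them Cd68, C1qb and Cd74. Without δ-cell replicate 3, 6 were called and 4 of them were higher in δ-cells, and without γ-cell replicate 3, 5 and 3. Without δ-cell replicate 1 the direction turned, with 4 called and 0 higher in δ-cells, and C3 and Laptm5 called higher in γ-cells. The count and its direction thus rest on single libraries. In these fits, in the same order, 34, 32.7, 35.1 and 32.7% of all genes were called. Of all genes, 13.6, 12.3, 14.5 and 11.6% were higher in δ-cells. The median log2 fold change of the 36 genes was -0.30, beside -0.06 over all genes. In bulk, fewer cells of a type and less RNA per cell cannot be told apart. γ-Cell libraries had paired-end and δ-cell libraries single-end reads, from different sequencer models. The mouse line also differed, and DOX is given for the γ-cell mice only. These differences and the cell type cannot be told apart either. As nothing names separate animals behind the libraries, p-values measure the spread between these libraries.

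C3ar1, the receptor for the complement fragment C3a, was at 0.378, 0, 0.321, 0 and 0 CPM in γ-cell replicates 1 to 5 and at 5.63, 1.70 and 1.41 CPM in δ-cell replicates 1 to 3. The groups did not overlap (log2 fold change of γ- over δ-cells -3.95, SE 1.14, adjusted p = 0.0138 from edgeR), but without δ-cell replicate 1 the gene was no longer called (log2 fold change -3.11). Csf2ra, a chain of the GM-CSF receptor, was at 49.8, 32.1, 48.1, 57.4 and 62.5 CPM in γ-cells and at 12.6, 13.8 and 19.7 CPM in δ-cells. It was higher in every γ-cell library (log2 fold change 1.97, SE 0.23, adjusted p = 4.15e-05 from edgeR). Sirpa, a receptor that restrains phagocytosis, lay between 77.9 and 97.1 CPM in γ-cells and between 39.6 and 50.7 CPM in δ-cells (log2 fold change 1.23, SE 0.12, adjusted p = 9.22e-06 from edgeR), and with upper-quartile scaling its fold was below the limit (0.94). In single cells, Csf2ra and Sirpa were past 4-fold in the myeloid cells, at 72.9 and 118 CPM and at 81.0 and 80.7 CPM. In bulk, γ-cell replicate 4 held 57.4 CPM of Csf2ra and 77.9 CPM of Sirpa. The same library had 0 CPM of Tyrobp and of Csf1r and 1.36 CPM of Lyz2. Which cells gave the bulk levels of Csf2ra and Sirpa was not tested.

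Lyz2, the first of the core genes, was at 8.94, 1.38, 21.1, 1.36 and 190.3 CPM in γ-cell replicates 1 to 5 and at 73.4, 13.1 and 6.40 CPM in δ-cell replicates 1 to 3. The groups overlapped (log2 fold change 0.84, SE 1.45, adjusted p = 0.652 from edgeR). Of the 7 core genes none was called, at a median log2 fold change of 0.07, and edgeR gave an unadjusted p under 0.05 for 1 of them, beside 10479 of all 17926 genes. Summed over the 5 lists, the γ-cell libraries held 498, 425, 940.4, 499 and 985 CPM and the δ-cell libraries 1267, 583 and 330.2 CPM. Of these sums C3, which was mainly stromal in single cells, gave 111, 75.3, 424, 162 and 150 CPM and 129, 12.7 and 3.58 CPM. γ-Cell replicate 5 was the highest γ-cell library for the core genes, with 281 CPM against 59.8 to 95.8 CPM in the others, and δ-cell replicate 1 the highest of its group with 211 CPM.

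In bulk, C1qa lay between 33.0 and 54.1 CPM in γ-cells and between 59.1 and 85.8 CPM in δ-cells. On these CPM, which use library totals without TMM scaling, every δ-cell library lay above every γ-cell library. The TMM-scaled log2 fold change was -0.42 (SE 0.18, adjusted p = 0.0764 from edgeR, not called), and whether the groups part after TMM scaling was not measured. C1qb was at 0.239 to 20.4 CPM in γ-cells and at 1.41 to 16.7 CPM in δ-cells, and 4 of the 5 γ-cell libraries held at most 2.06 CPM of it. The 7 MHC class II genes had a median log2 fold change of -1.24 and none was called. Cd74 had the lowest adjusted p of them, at 25.0 to 102 CPM in γ-cells and 24.8 to 428 CPM in δ-cells (log2 fold change -1.76, SE 0.69, adjusted p = 0.0525 from edgeR), and it was called without γ-cell replicate 5, without δ-cell replicate 3, with upper-quartile scaling and with DESeq2's size factors. H2-DMb1 was called as often, with DESeq2, with upper-quartile scaling, without γ-cell replicate 3 and without δ-cell replicate 3. H2-Aa was called without δ-cell replicate 3 and Ciita without γ-cell replicate 3.

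**Figure D5:**
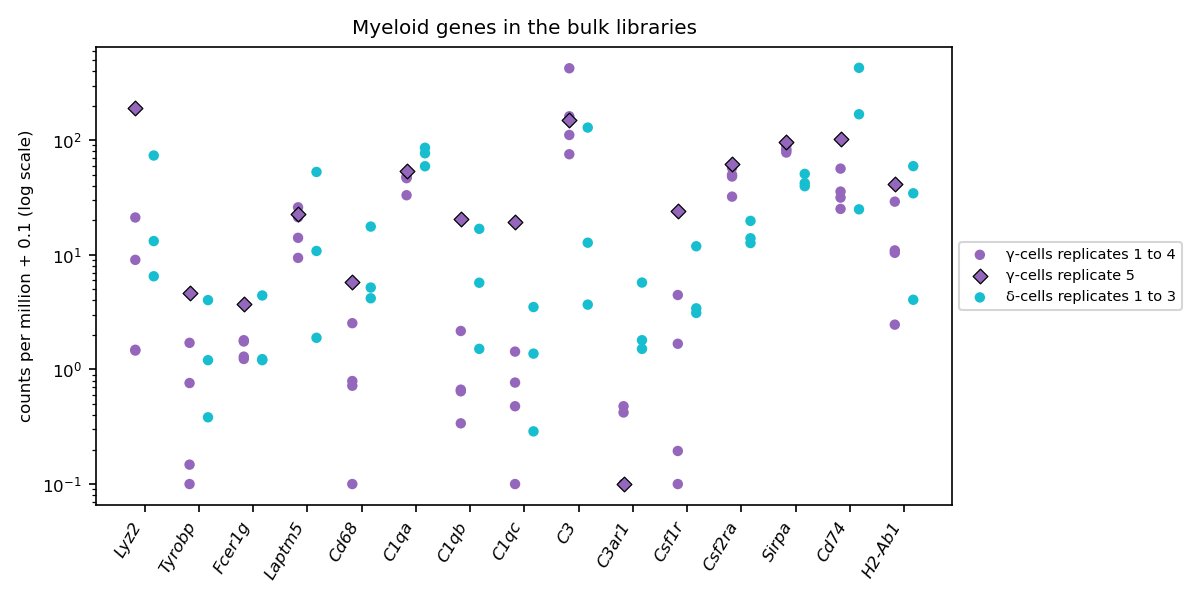
CPM plus 0.1 (log axis) of 15 myeloid genes in each bulk library, with γ-cell replicates 1 to 4 as purple circles, γ-cell replicate 5 as purple diamonds and δ-cell replicates 1 to 3 in cyan. Replicate 5 is the highest γ-cell library for Lyz2 (190.3 CPM), C1qb, C1qc and Csf1r, while Csf2ra and Sirpa lie higher in all 5 γ-cell libraries than in the 3 δ-cell libraries.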

How the data were processed

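Single-cell libraries were made with the 10x 3′ kit (v2), which counts 3′ ends, so levels were compared without gene length. The authors counted reads with Cell Ranger on mm10, to which the YFP and rtTA sequences had been added, and deposited UMI counts per gene and cell, without normalization. The deposited matrices hold cells with at least 500 genes and 1000 UMIs. The authors removed doublets in a later step, and no doublet caller was run here. For bulk RNA-seq the authors aligned reads with STAR 2.7.2b, counted them with HTSeq 0.9.1 and deposited raw counts per gene, and 6 columns of libraries that are not among these samples were not used. According to the submitters' notes the build was mm10 or GRCm38.p6.

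Cells were chosen by the rule given above. B-lineage cells were chosen by 3 or more markers of their own, and endothelial and stromal cells by 4 or more, under the same hormone limits. A cell that met more than 1 of these class rules was placed in none. Monohormonal endocrine cells had exactly 1 hormone above its limit. UMIs were summed over the cells of a library and scaled to CPM. Shares have exact binomial and levels exact Poisson intervals at 95%. The choice of the cells and of the gene lists was made with earlier results of these data known. All genes of these lists could be named, with the 20 leading genes by fold, the 5 genes in each direction between experiments and the 5 bulk lists. Predicted genes were counted and left unnamed, and 1 listed gene is counted but not reported here. Bulk counts were tested over all genes with edgeR 4.0.16 (TMM, quasi-likelihood) in R 4.3.3. Bulk CPM, and statements on whether groups overlap, use library totals without TMM scaling. In simulated bulk counts of 17758 genes, 5 libraries against 3, 71.3% of 108 genes changed by a log2 fold of 1.5 and 92 of 92 changed by 2 were recovered, with 10 unchanged genes called. The changed genes were drawn from well-counted genes only, and all genes were given the same dispersion. Several myeloid genes had fewer counts and a wider spread, such as Tyrobp with 0 to 66 counts per library and an SE of 1.36. The recovery of such genes was not simulated. Alternatives were other gene numbers and hormone limits, thinning to 1000 UMIs, other folds, offsets and minima, other bulk scalings and filters, DESeq2 1.42.0, a replicate block and each library left out. Calculations used Python 3.11.15 with numpy 2.4.6, pandas 2.3.3 and scipy 1.17.1, and matplotlib 3.10.9.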

Additional observations from a re-analysis of the deposited data

Results flagged for a closer look

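In 12 of 36 myeloid genes tested in bulk, 1 of the 5 γ-cell libraries stood farther from its nearest neighbour than Dixon's 95% critical value of 0.71 of the group's range. Chance gives about 1 such gene in 20, and genes of a library are not independent. Of all 17926 genes tested, 1596 (8.9%) passed the same limit, and in 217 (1.21%) γ-cell replicate 5 was the library that stood highest. In 9 of them the library was γ-cell replicate 5, which held 190.3 CPM of Lyz2 (next library 21.1), 20.4 CPM of C1qb (2.06), 19.4 CPM of C1qc (1.33), 23.8 CPM of Csf1r (4.36), 12.2 CPM of Cfp (3.46), 3.62 CPM of Fcer1g (1.70), 3.08 CPM of Cd300a (0.413), 2.53 CPM of Fcgr3 (0.459) and 1.64 CPM of Clec7a (0.283). γ-Cell replicate 3 was highest in C3 (424 CPM, next 162), and replicate 1 in Retnla (7.20 CPM, next 0.505).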

How the results depend on the processing

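The number of myeloid cells was 161 with at least 5 of the 6 genes, 172 after thinning to 1000 UMIs and 128 without cells that had 2 genes of another class, and it ranged from 284 to 374 under the other 3 settings. Of the share in YFP- over YFP+ libraries, 9.12 percentage points, leaving out an experiment gave 5.15 to 13.1 points, and the replicate block (experiments as pairs) gave the same 9.12 points. The 328 genes past 4-fold became 144 at 8-fold, 217 with an offset of 10 CPM, 107 against other cells without a hormone above its limit, 699 without a minimum of UMIs, 138 without cells that had 2 genes of another class, and 667 to 688 with 1 experiment alone. Between experiments, 199 genes were past 2-fold. The islet-type list was scored in 24 cells at 4 genes and in 18 after thinning, in place of 57.

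In bulk, 3 called myeloid genes became 5 with upper-quartile scaling, 6 without a filter, 4 with DESeq2 and 5 with the replicate block, although the numbers do not pair these libraries (correlations of same-numbered libraries -0.166, 0.0867 and -0.312). Leaving out a library gave 3 to 8, with 8 without γ-cell replicate 5, 5 without γ-cell replicate 3 and 6 without δ-cell replicate 3. Upper-quartile scaling moved the median of all genes by -0.30 on the log2 scale and the calls over all genes from 3715 higher and 2553 lower in γ-cells to 3055 and 3746. The myeloid median was then -0.65 beside -0.35 over all genes, in place of -0.30 beside -0.06, and Sirpa (log2 fold change 0.94) was no longer called. Csf2ra was called in all 12 of the alternative scalings, tools, blocks and left-out libraries. The cause of these changes was not tested. Thinned to 1000 UMIs, 1 of the 42 cells of the dendritic list still had 3 of its genes.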

Other observations

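Among lysosome genes, the cathepsin Ctss stood at 888 and 574 CPM and the cathepsin Ctsb at 869 and 1044 CPM in experiments 1 and 2, and 9 of 14 genes of the list, of which 13 had at least 20 UMIs in each, were past 4-fold over other YFP- cells in both, beside 16.2% of all genes. Lyz2, a gene of the rule, is 1 of the 9. Lyz1, the second lysozyme gene, had UMIs in 25 and 99 cells at 885 and 853 CPM. Lyz1 and Lyz2 are near-identical, so the division of reads between them is uncertain. The ferritin chains Ftl1 (5866 and 6305 CPM) and Fth1 (4253 and 4342 CPM) were detected in all 298 cells, but stromal cells held 9268 and 9131 CPM of Fth1. Transferrin (Trf) was at 291 and 303 CPM in 37 and 121 cells.

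Of 15 transcription factors 7 had enough UMIs, and of these Spi1, Irf5, Maf and Zeb2 were past 4-fold in both experiments, and Irf8 stood at 1104 and 213 CPM. Of 12 interferon response genes 3 had enough UMIs, and of these Ifitm3 was past it (915 and 1326 CPM), and endothelial cells held more of it, at 3256 and 2926 CPM. Of 13 immediate early genes, which dissociation of tissue is known to raise, 7 had enough UMIs and none of these was past 4-fold, with Fos at 297 and 246 CPM against 117 and 177 CPM in other YFP- cells. Of 11 phagocytosis genes 6 had enough UMIs and 4 were past 4-fold (Stab1, Itgam, Itgb2 and Marco), and the receptor Timd4 was found in 11 and 40 cells. The choice of cells shares this contrast, and 16.2% of all genes were past 4-fold, so nothing is read from the counts of these 4 lists.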
